A study of Saccharomyces cerevisiae with 9 samples.

Results

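The genes described here encode the nuclear-encoded subunits of the mitochondrial respiratory chain and of the ATP synthase of the budding yeast Saccharomyces cerevisiae. They were taken by name from a fixed list of 37 genes in 5 groups: 3 NADH dehydrogenases, 4 subunits of succinate dehydrogenase, 9 of the cytochrome bc1 complex, 7 of cytochrome c oxidase and 14 of the ATP synthase. All 37 had an entry and a test in both deposited tables, out of 6321 genes tested with CdSe/ZnS and 6367 with InP/ZnS, so no member was lost to a filter on low values. The rule itself uses no measured value, but the members were chosen with earlier results of these data known.

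Cells of the reference strain S288C had been cultured in SD-Glucose medium until mid-log phase. The untreated group received no agent, another group was given 10 µg/mL of CdSe/ZnS quantum dots and the last group 100 µg/mL of InP/ZnS quantum dots, each for 6 h and each with 3 libraries, 9 in all. Quantum dots are semiconductor nanocrystals, here cadmium selenide or indium phosphide covered by zinc sulfide. The unit of the InP/ZnS dose is uncertain, because the treatment text of the labels gives milligrams where the design text gives micrograms; the doses of the dots differ in either reading, so dose and kind of dot cannot be told apart. Whether the 3 libraries of a group are separate cultures is not in the labels, so the spread behind the tests may be technical.

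The measured quantity is FPKM, fragments normalised to transcript length and to library size. It was deposited as 1 value per gene and condition that pools the libraries, so the depth and the value of each library are unknown. A gene is called higher or lower here where the authors' deposited q, a p-value adjusted over all tested genes, was under 0.05. Errors of log2 fold changes are those implied by the authors' test score (fold change over score); this implied standard error lay between 0.202 and 0.354 for the members with CdSe/ZnS and between 0.221 and 0.296 with InP/ZnS. Across all tested genes the median log2 fold change was -0.35 with CdSe/ZnS, a fold of 0.786, and 0.07 with InP/ZnS.

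The respiratory chain sits in the inner mitochondrial membrane and passes electrons from NADH and succinate to oxygen. Saccharomyces cerevisiae has no proton-pumping complex I; NADH is oxidised by single-subunit enzymes that hand electrons to ubiquinone. The bc1 complex and cytochrome c oxidase then pump protons, and the ATP synthase uses the proton gradient to make ATP. A few core subunits are encoded in mitochondrial DNA, and all members described here are encoded in the nucleus, made in the cytosol and imported. On glucose this yeast ferments and keeps many respiratory genes low; transcription of many of them is raised by the Hap2/3/4/5 complex, which binds the letters CCAAT.

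The 250 bases before the start codon of 4 members are shown because these genes mark the range of what was measured. QCR8 was lower with CdSe/ZnS and higher with InP/ZnS, NDE1 and NDE2 were the members called higher with both, and ATP19 was the member called lower with both. The bases are from the RefSeq assembly R64, read 5′ to 3′ on the gene's strand, and the capitals mark each CCAAT or its reverse complement ATTGG. The QCR8 stretch, chrX:106184-106433 (plus strand), holds the letters 211 bases before the start codon. In the NDE1 stretch, chrXIII:556476-556725 (minus strand), they stand 102 and 9 bases before. In the ATP19 stretch, chrXV:185188-185437 (plus strand), they stand 134 bases before. The stretch before NDE2, chrIV:302961-303210 (plus strand), holds neither.
QCR8 promoter: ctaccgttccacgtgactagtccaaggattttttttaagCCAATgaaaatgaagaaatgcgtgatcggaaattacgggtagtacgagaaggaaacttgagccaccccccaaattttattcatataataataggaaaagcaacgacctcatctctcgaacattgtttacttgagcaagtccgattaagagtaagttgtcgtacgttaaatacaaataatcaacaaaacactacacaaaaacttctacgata
NDE1 promoter: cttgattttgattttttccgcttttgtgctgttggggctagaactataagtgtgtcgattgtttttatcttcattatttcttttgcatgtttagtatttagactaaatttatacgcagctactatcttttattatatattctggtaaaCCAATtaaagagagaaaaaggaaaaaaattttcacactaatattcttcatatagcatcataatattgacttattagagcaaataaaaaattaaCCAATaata
ATP19 promoter: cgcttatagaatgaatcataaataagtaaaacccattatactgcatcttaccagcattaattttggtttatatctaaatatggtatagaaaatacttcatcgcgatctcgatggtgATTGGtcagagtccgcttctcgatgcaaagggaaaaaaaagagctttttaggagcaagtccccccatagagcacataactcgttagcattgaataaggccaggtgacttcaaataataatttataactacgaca
NDE2 promoter: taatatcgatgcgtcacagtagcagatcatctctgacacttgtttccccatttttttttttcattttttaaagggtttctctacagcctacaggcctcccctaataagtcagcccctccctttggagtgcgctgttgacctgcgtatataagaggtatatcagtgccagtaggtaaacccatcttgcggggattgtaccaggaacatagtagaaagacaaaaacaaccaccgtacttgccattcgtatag

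CCAAT on either strand stood in the 250 bases before 32 of the 37 members (86.5%), beside 2126 of 6007 protein-coding genes of the nuclear genome (35.4%). It was present before 2 of 3 NADH dehydrogenase genes, 4 of 4 succinate dehydrogenase genes, 7 of 9 bc1 genes, 6 of 7 cytochrome c oxidase genes and 13 of 14 ATP synthase genes. The longer form TNATTGGT, searched on both strands and always containing the shorter one, stood before 16 members (43.2%) and 260 of the 6007 genes (4.33%). Of the 29 members called higher with InP/ZnS, 24 had CCAAT and 10 the longer form; of the 8 others, 8 had CCAAT and 6 the longer form, a difference that was not tested. These are matches of letters and say nothing about binding.

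The coding sequences of ATP19 and COX9 are also shown, because both genes are short and have a high FPKM, with the start and stop codons in capitals. ATP19, which encodes a small membrane subunit of the ATP synthase (subunit k), is at chrXV:185438-185644 on the plus strand and is 207 bases long. COX9, which encodes a small membrane subunit of cytochrome c oxidase, is at chrIV:334217-334396 on the minus strand and is 180 bases long. Both are single exons without introns; among the members only QCR9 and QCR10 have an intron in this annotation.
ATP19 coding sequence: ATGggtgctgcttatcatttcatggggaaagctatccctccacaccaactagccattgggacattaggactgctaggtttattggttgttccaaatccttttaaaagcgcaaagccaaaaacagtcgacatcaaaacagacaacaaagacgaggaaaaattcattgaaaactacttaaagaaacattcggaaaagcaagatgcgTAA
COX9 coding sequence: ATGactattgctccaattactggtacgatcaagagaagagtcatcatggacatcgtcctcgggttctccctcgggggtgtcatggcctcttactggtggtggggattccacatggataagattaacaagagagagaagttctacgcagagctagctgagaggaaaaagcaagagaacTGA

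In untreated cells the members spanned a wide range of levels. In the table that holds the CdSe/ZnS comparison their untreated FPKM ran from 48.9 (NDE2) to 12387 (COX9), with a median of 349, against 48.1 for all tested genes. COX9 ranked 9th of 6321 genes, ATP15 57th and ATP19 120th, while NDE2 ranked 3128th. FPKM divides by transcript length, and COX9, ATP15 and ATP19 have coding sequences of 180, 189 and 207 bases. How far their ranks reflect that short length was not tested. The medians by complex were 77.7 FPKM for the NADH dehydrogenases, 202 for succinate dehydrogenase, 623 for bc1, 413 for cytochrome c oxidase and 381 for the ATP synthase. The untreated values of the InP/ZnS table were higher for all 37 members, by a median factor of 1.15 (range 1.05 to 1.32), beside 1.14 for all genes tested in both tables. The tables were therefore not on a common scale, and fold changes below are within a table.

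**Figure D1:**
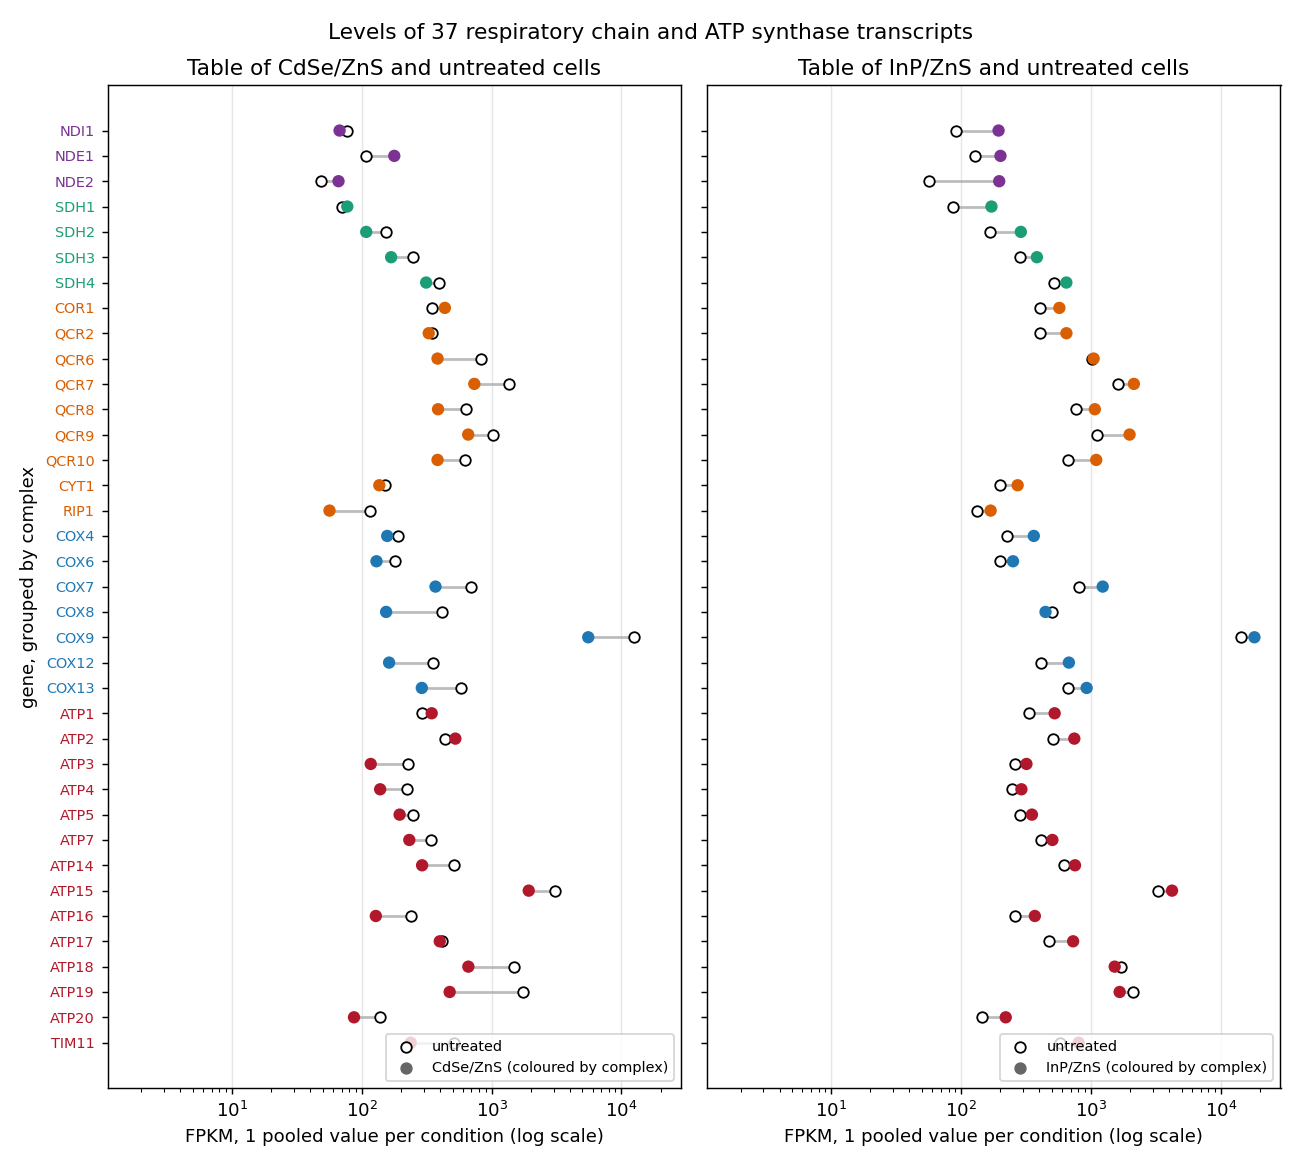
Deposited FPKM of each of the 37 members (log axis), by complex, in untreated and treated cells of the CdSe/ZnS table and of the InP/ZnS table; each point is 1 value that pools the libraries of a condition, so there are no error bars. Most treated points lie below the untreated ones with CdSe/ZnS and above them with InP/ZnS, and COX9 stands above all others.

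With CdSe/ZnS most members were lower than in untreated cells. By the authors' q, 26 of 37 were lower and 2 higher; 43.6% of all tested genes were lower and 9.59% higher. The members' median log2 fold change was -0.67, which is 0.32 below the median of all genes. At the ends of the range, ATP19 fell from 1747 to 475 FPKM and NDE1 rose from 107 to 178. Because the whole table was shifted downward, the count depends on that shift: after subtracting the median of all genes and testing against the implied standard error, 10 members were lower (13.6% of all genes) and 4 higher (11.9%). The higher ones were NDE1 at 1.08, NDE2 at 0.78, COR1 at 0.68 and ATP2 at 0.62, as centred log2 values.

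The 2 members called higher with CdSe/ZnS were both NADH dehydrogenases. NDE1, an external NADH dehydrogenase that oxidises cytosolic NADH, rose 1.66-fold (log2 0.73, implied standard error 0.24). NDE2, its paralogue with the same role, rose from 48.9 to 66.2 FPKM, a log2 fold change of 0.44 (implied standard error 0.22; the authors' q = 0.0158). NDI1, the internal enzyme that oxidises NADH of the matrix, had 77.7 FPKM untreated and 67.5 treated, and did not pass (log2 -0.20; the authors' q = 0.262); with the median of all genes subtracted its value was 0.14.

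Of the 4 succinate dehydrogenase genes, whose enzyme also belongs to the citric acid cycle, 3 were lower with CdSe/ZnS. SDH2, the iron-sulfur subunit, went from 153 to 108 FPKM, and SDH3, a membrane anchor that holds the site for ubiquinone together with SDH4, from 250 to 168. SDH4 was lower by the authors' q of 0.0474 (394 to 313 FPKM), but its log2 fold change of -0.33 becomes 0.02 once the median of all genes is subtracted. SDH1, the flavoprotein subunit that carries the active site, had 69.9 and 77.4 FPKM and did not pass (the authors' q = 0.453).

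In the bc1 complex 6 of 9 genes were lower with CdSe/ZnS and none higher by the authors' q, with a median log2 fold change of -0.70. RIP1, the Rieske iron-sulfur protein, fell from 116 to 56.4 FPKM (log2 -1.04, implied standard error 0.24). QCR6, the acidic hinge protein that touches cytochrome c1, fell from 824 to 383 FPKM (log2 -1.10, implied standard error 0.20). The small subunits were lower as well: QCR7 from 1358 to 736 FPKM, QCR8 from 637 to 387, QCR9 from 1028 to 660 and QCR10 from 623 to 383. Their coding sequences have 201 to 384 bases, beside 1374 for COR1 and 1107 for QCR2, the core subunits. With the trend of all genes with coding length removed, QCR7 was at -0.17, QCR8 at 0.06, QCR9 at 0.17 and QCR10 at 0.11. COR1 was then at 0.62 and QCR2 at 0.31, and no bc1 gene was called. By the authors' q the core subunits and cytochrome c1 did not pass. COR1 had 347 and 437 FPKM (log2 0.33; the authors' q = 0.0760), QCR2 had 349 and 328, and CYT1, the catalytic cytochrome c1, had 150 and 137.

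Cytochrome c oxidase had the lowest median of the 5 groups with CdSe/ZnS, -1.01, and 6 of its 7 genes were lower. Its genes are short, with coding sequences of 180 to 468 bases, and the group medians were not freed of a trend with length. The members encode supernumerary subunits that surround the catalytic core encoded in mitochondrial DNA. COX8 fell from 413 to 154 FPKM (log2 -1.42, implied standard error 0.33), the largest fall of the group. COX9, the member with the highest FPKM, fell from 12387 to 5549 FPKM (log2 -1.16, implied standard error 0.21). COX12 fell from 351 to 162 FPKM, COX13 from 584 to 290, COX7 from 693 to 370 and COX6 from 180 to 130. COX4, a subunit that binds zinc, had 191 and 157 FPKM and did not pass (log2 -0.28; the authors' q = 0.110).

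Of the 14 ATP synthase genes 11 were lower with CdSe/ZnS and none was higher by the authors' q, with a median log2 fold change of -0.67. In the catalytic head and its rotor the calls were mixed. ATP1 and ATP2, the alpha and beta subunits that form the catalytic hexamer, had 290 and 346 FPKM and 435 and 526 FPKM and did not pass, while the subunits of the central stalk were lower. ATP3, the gamma subunit, fell from 228 to 117 FPKM (log2 -0.96), ATP16, the delta subunit, from 239 to 128 (log2 -0.90), and ATP15, the epsilon subunit, from 3076 to 1932 (log2 -0.67). These stalk genes have 936, 483 and 189 coding bases, beside 1638 for ATP1 and 1536 for ATP2. With the trend of all genes with coding length removed, ATP3 was at -0.52, ATP16 at -0.23 and ATP15 at 0.14. ATP1 was then at 0.47 and ATP2 at 0.48, and none of these genes was called. ATP1 shares its locus with another entry, so its value is uncertain.

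In the peripheral stalk ATP4 (subunit b) fell from 222 to 139 FPKM, ATP7 (subunit d) from 344 to 232 and ATP14 (subunit h) from 511 to 292, the last at a locus shared with another entry. ATP5, the subunit that ties the stalk to the head, was lower by the authors' q of 0.0406 (247 to 196 FPKM), but its log2 fold change of -0.34 becomes 0.01 once that median is subtracted. The small membrane subunits included the largest fall of all members. ATP19 fell 3.68-fold (log2 -1.88, implied standard error 0.24), ATP18 (subunit i/j) from 1478 to 662 FPKM (log2 -1.16), and TIM11 (subunit e) from 514 to 238 (log2 -1.11). ATP20 (subunit g), which with subunits e and k is known from the dimer of the enzyme, fell from 138 to 87.2 FPKM (log2 -0.67), and ATP17 (subunit f) had 418 and 399 FPKM and did not pass.

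With InP/ZnS most members were higher than in untreated cells. By the authors' q, 29 of 37 were higher and 1 lower, where 23.9% of all tested genes were higher and 17.2% lower. The members' median log2 fold change was 0.48, which is 0.41 above the median of all genes. Most of these rises were small: only NDI1 and NDE2 had a log2 fold change of at least 1. A 2-sided normal test against the implied standard error, adjusted over all genes, called 10 of the 29 members higher (9.30% of all genes) and none lower (6.55%): NDI1, NDE1, NDE2, SDH1, SDH2, QCR2, QCR9, QCR10, COX4 and COX12.

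All 3 NADH dehydrogenase genes were higher with InP/ZnS. NDE2 rose from 56.4 to 196 FPKM, 3.48-fold (log2 1.80, implied standard error 0.24), the largest change of any member in this comparison. NDI1 rose from 91.0 to 194 FPKM, 2.13-fold (log2 1.09, implied standard error 0.23), and NDE1 from 128 to 201 FPKM (log2 0.65). NDE2 was the lowest of the 37 members in untreated cells, and after InP/ZnS its FPKM was close to those of NDI1 and NDE1.

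All 4 succinate dehydrogenase genes were higher as well. SDH1 rose from 87.2 to 171 FPKM (log2 0.97, implied standard error 0.24) and SDH2 from 167 to 288 (log2 0.79). The membrane anchors moved less, SDH3 from 283 to 384 FPKM (log2 0.44) and SDH4 from 519 to 647 (log2 0.32; the authors' q = 0.0486, just under the threshold).

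In the bc1 complex 8 of 9 genes were higher with InP/ZnS. QCR9 rose from 1117 to 1984 FPKM (log2 0.83, implied standard error 0.25), QCR10 from 668 to 1098 (log2 0.72) and QCR2 from 406 to 647 (log2 0.67). QCR7, QCR8, COR1 and CYT1 rose by log2 values between 0.41 and 0.50, and RIP1 from 132 to 169 FPKM (log2 0.35; the authors' q = 0.0272). QCR6 had 1014 and 1049 FPKM and did not pass (the authors' q = 0.807).

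Of the 7 cytochrome c oxidase genes 6 were higher with InP/ZnS. COX12 rose from 412 to 676 FPKM (log2 0.72, implied standard error 0.26), COX4 from 227 to 363 (log2 0.67) and COX7 from 806 to 1232 (log2 0.61). COX13 rose from 665 to 926 FPKM and COX9 from 14231 to 18160 (log2 0.35; the authors' q = 0.0245), and COX6 from 199 to 251. COX8 had 504 FPKM untreated and 447 treated and did not pass (the authors' q = 0.408).

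The ATP synthase had the lowest median of the 5 groups with InP/ZnS, 0.34, with 8 of 14 genes higher and 1 lower. The alpha and beta subunit genes were higher: ATP1 rose from 335 to 525 FPKM (log2 0.65) and ATP2 from 510 to 744 (log2 0.54). ATP17 rose from 472 to 729 FPKM, ATP20 from 146 to 221, ATP16 from 261 to 370, TIM11 from 578 to 804, ATP15 from 3291 to 4212 and ATP5 from 282 to 351. ATP3, ATP4, ATP7 and ATP14 had log2 fold changes between 0.23 and 0.30 and did not pass. ATP18 had 1690 and 1523 FPKM and did not pass, and ATP19 was lower, from 2115 to 1663 FPKM (log2 -0.35, implied standard error 0.24; the authors' q = 0.0365).

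**Figure D2:**
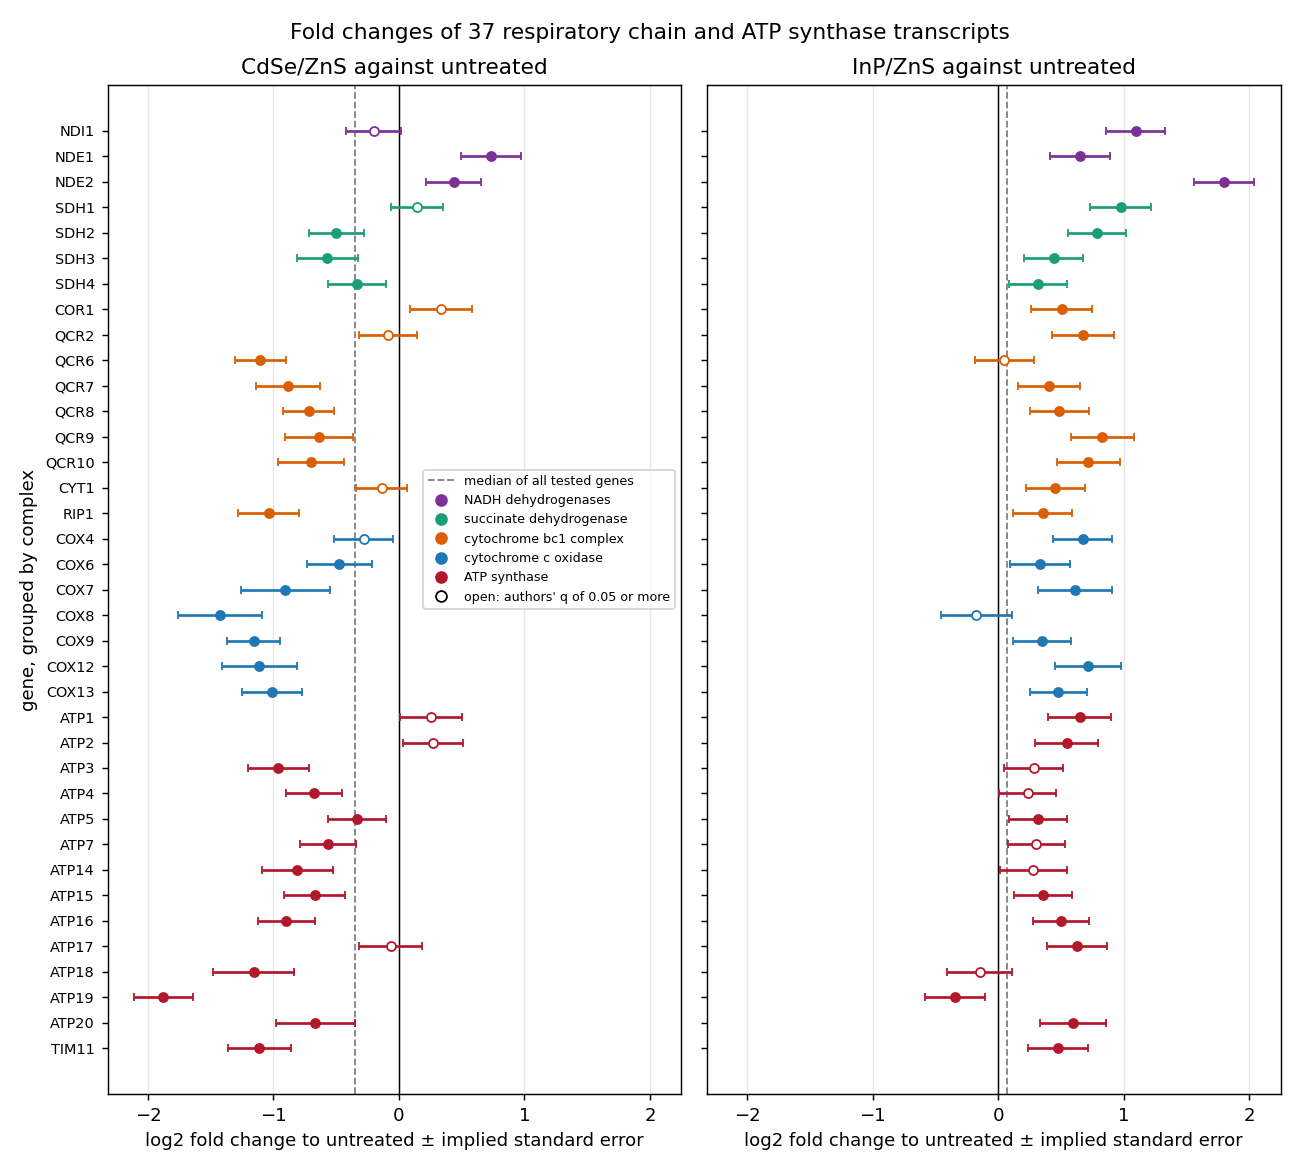
Log2 fold change against untreated of each of the 37 members for each quantum dot, by complex; bars are 1 implied standard error to each side, filled points have the authors' q under 0.05 and dashed lines mark the median of all tested genes, -0.35 and 0.07. All members but NDE1 have the InP/ZnS point above the CdSe/ZnS point, and the gap is smallest for NDE1, COR1, ATP2 and ATP1.

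Set side by side, 18 members were called lower with CdSe/ZnS and higher with InP/ZnS (4.69% of the 6290 genes tested in both tables), among them SDH2, SDH3, all of QCR7, QCR8, QCR9 and QCR10, RIP1, COX9 and TIM11. A further 9 were not called with CdSe/ZnS and higher with InP/ZnS (12.6% of those genes), and 7 were lower with CdSe/ZnS and not called with InP/ZnS (24.4%). NDE1 and NDE2 were higher with both (6.79%) and ATP19 lower with both (14.8%). These joint calls rest on the authors' q without centring. By the normal test after centring, the members lower with CdSe/ZnS were QCR6, RIP1, COX8, COX9, COX12, COX13, ATP3, ATP18, ATP19 and TIM11 (13.6% of all genes). Those then higher with InP/ZnS were NDI1, NDE2, SDH1, SDH2 and QCR9 (7.87% of all genes), of which NDE2 was also higher with CdSe/ZnS after centring. Joint calls after centring were not counted over all genes, so the overlap of these lists has no share to be read against. The comparisons share their untreated libraries, so a deviation of those libraries enters both fold changes with the same sign.

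The difference between the dots was tested as the InP/ZnS minus the CdSe/ZnS log2 fold change over the combined implied standard errors, adjusted over 6290 genes. It was called higher for 24 members (12.0% of all genes) and lower for 0 (0.318%). The sign was positive for 36 of 37 members and for 5029 of all 6290 genes; the members' median was 1.15 and that of all genes 0.41. With each table centred on its own median 5 members were called higher (2.07% of all genes), and with each table freed of its trend with coding length 1 was (1.83%), a share of the members near that of all genes.

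The difference was largest for COX12, at 1.83 on the log2 scale (standard error 0.40; adjusted p = 0.000263, from the errors implied by the authors' scores). TIM11 followed at 1.59, ATP19 at 1.53, COX7 at 1.52 and COX9 at 1.51. For COX9 the error was among the smaller ones, 0.31, and the adjusted p was 9.86e-05, again from the authors' scores. Cytochrome c oxidase had the highest median difference of the 5 groups, 1.49, with 6 of 7 genes called. The NADH dehydrogenases had 1.30 with 2 of 3 called, bc1 1.21 with 6 of 9, the ATP synthase 1.02 with 8 of 14 and succinate dehydrogenase 0.92 with 2 of 4. These medians were not freed of the trend with coding length, in which the groups differ. The cytochrome c oxidase genes have 180 to 468 bases and the NADH dehydrogenase genes 1542 to 1683.

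The members at the low end were NDE1, with a difference of -0.08 (standard error 0.34), COR1 with 0.17 (0.35), ATP2 with 0.27 (0.35) and ATP1 with 0.40 (0.35). None of these passed, and errors of this size leave room for a difference in either direction.

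Among the members the CdSe/ZnS response followed coding length, the distance from start to stop codon. All 11 members of up to 300 bases were lower, with a median log2 fold change of -1.11. Of the 18 members of over 300 and up to 1000 bases 15 were lower (median -0.62). Of the 8 longer ones, NDI1, NDE1, NDE2, SDH1, COR1, QCR2, ATP1 and ATP2, none was lower and 2 were higher (median 0.26). The same order was present, less steep, over all genes: the medians were -0.82 in 246 genes of up to 300 bases, -0.59 in 2022 of middle length and -0.21 in 3430 longer ones, with 56.9%, 59.2% and 39.4% called lower. Spearman's rho between coding length and log2 fold change was 0.73 over the 37 members and 0.34 over 5698 genes, as a description across genes that share their libraries.

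Length also moved with level: the rho between coding length and untreated FPKM was -0.78 over the members in the CdSe/ZnS table and -0.41 over all genes. With the trend of all genes with coding length removed, the members' CdSe/ZnS median was 0.07, with 1 member lower (12.1% of 5698 genes) and 3 higher (10.5%). The lower one was ATP19, at -1.07, and the higher ones were NDE1 at 0.95, ATP17 at 0.70 and NDE2 at 0.65. Length and level cannot be told apart over these genes.

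With InP/ZnS the calls were spread over all 3 length classes. Of the members of up to 300 bases 8 of 11 were higher and 1 lower (median 0.48), of those of over 300 and up to 1000 bases 13 of 18 were higher (median 0.38), and all 8 longer ones were higher (median 0.66). The corresponding medians of all genes were -0.10, 0.00 and 0.11, with 15.4%, 21.0% and 29.8% called higher and 21.7%, 22.2% and 16.4% lower. The members' rho with coding length was 0.33, and 0.11 over 5739 genes. With the length trend removed the members' median was 0.46, close to the 0.48 with it.

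**Figure D3:**
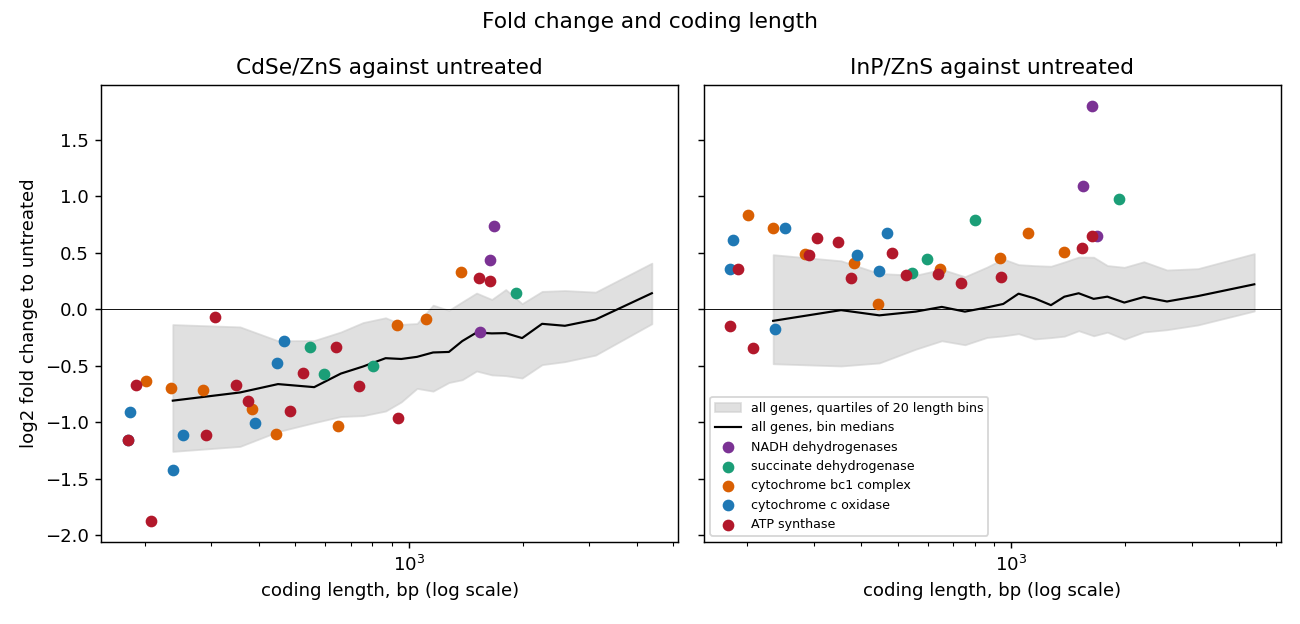
Log2 fold change against coding length (log axis, bases) for each quantum dot; coloured points are the 37 members by complex, and the line and band are the median and quartiles of all genes in 20 bins of equal size. With CdSe/ZnS the members lie lowest among short genes, with ATP19 at the bottom, and the 8 longest lie on or above the line; with InP/ZnS most lie above the line at all lengths.

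The other genes of the pathway were counted in 8 lists, whose counts are to be read against all tested genes: 43.6% lower and 9.59% higher with CdSe/ZnS, and 23.9% higher and 17.2% lower with InP/ZnS. The lists were not freed of the trend with coding length. With CdSe/ZnS 56.9% of all genes of up to 300 bases were lower, 59.2% of over 300 and up to 1000 bases and 39.4% of longer ones. Of 37 assembly factors, which build the complexes and insert their cofactors, 29 were lower and none higher with CdSe/ZnS (78.4% lower; median -0.93); 11 were higher and 8 lower with InP/ZnS (29.7% and 21.6%; median 0.13), shares near those of all genes. With CdSe/ZnS, COX14, PET117 and MZM1 fell by 1.69, 1.68 and 1.66 on the log2 scale, and COA6 by 2.03 at a locus shared with another entry. COX14, PET117 and COA6 serve cytochrome c oxidase and MZM1 serves bc1, and their coding lengths run from 213 (COX14) to 372 bases (MZM1). With InP/ZnS, COA2, COX15 and COX20, which serve cytochrome c oxidase, rose by 1.13, 0.70 and 0.76, and CBP4, which serves bc1, by 0.98; COX20 shares its locus.

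The mitochondrially encoded core subunits need nuclear-encoded factors for their messages, and 10 of 21 such factors were lower with CdSe/ZnS (47.6%, near the share of all genes; median -0.48), and 8 were higher and 2 lower with InP/ZnS (38.1% and 9.52%; median 0.12). CBP1, which stabilises the cytochrome b message, was lower with both, at -1.25 and -0.61. NCA3, NAM1 and AEP2 were the other factors named for CdSe/ZnS, at -1.29, -0.72 and -0.64, and NCA2, CBP6 and AEP3 rose with InP/ZnS by 0.94, 0.87 and 0.71. Of the mitochondrially encoded genes themselves 3 of 7 were tested with CdSe/ZnS and 1 with InP/ZnS, in libraries made from poly(A) RNA. None passed against untreated. With CdSe/ZnS, OLI1, the subunit of the rotor ring, was listed at 4.44 FPKM untreated and 1044 treated (the authors' q = 0.0521). COX1, the catalytic oxidase subunit, at a locus shared with other entries, was listed at 0.0849 and 15.7 FPKM (the authors' q = 0.241), and ATP6, a subunit of the proton channel, at 0.164 and 6.50 (the authors' q = 0.271). OLI1 had a log2 fold change of 0.82 with InP/ZnS (the authors' q = 0.383).

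Of the genes of coenzyme Q synthesis 9 of 11 were tested, and 5 were lower with CdSe/ZnS (55.6%; median -0.42, which is 0.07 below that of all genes) and 5 higher with InP/ZnS (55.6%; median 0.41). COQ4 was called in both comparisons, at -0.69 and 0.74, as was COQ1, at -0.48 and 0.61. COQ5 and COQ6, at -0.42 and -0.44, completed the genes named for CdSe/ZnS, and COQ9 and COQ3, at 0.69 and 0.64, those for InP/ZnS; COQ9 shares its locus.

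Cytochrome c carries electrons from bc1 to the oxidase. CYC7, its minor isoform, rose from 96.3 to 864 FPKM with InP/ZnS, 8.97-fold (log2 3.17, implied standard error 0.28), and did not pass with CdSe/ZnS (log2 -0.15). CYC1, the major isoform, was lower with CdSe/ZnS (log2 -0.46; the authors' q = 0.0394) and did not pass with InP/ZnS (log2 -0.11; the authors' q = 0.672). Over the 8 genes of cytochrome c, its maturation and other electron donors, 5 were lower with CdSe/ZnS (median -0.70), and 3 were higher and 2 lower with InP/ZnS (median 0.08). DLD1, a D-lactate dehydrogenase, was lower with both, at -1.44 and -0.53, as was CYT2, which attaches heme to cytochrome c1, at -1.30 and -0.44. CYC3, which attaches heme to cytochrome c, and CYC2 were lower with CdSe/ZnS, at -0.94 and -0.97, and did not pass with InP/ZnS, at 0.25 and -0.08. GUT2, the glycerol-3-phosphate dehydrogenase of mitochondria, and CYB2, an L-lactate dehydrogenase, rose with InP/ZnS by 0.96 and 0.47.

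Cytochrome c oxidase has alternative forms of its subunit V that lie outside the member list. COX5A, the aerobic form, fell from 433 to 214 FPKM with CdSe/ZnS (log2 -1.02) and did not pass with InP/ZnS (532 and 468 FPKM; the authors' q = 0.264). COX5B, the hypoxic form, fell from 601 to 245 FPKM with CdSe/ZnS (log2 -1.29) and rose from 708 to 1193 with InP/ZnS (log2 0.75). COX26, a small protein of the supercomplexes, rose with both, 2.76-fold with CdSe/ZnS (log2 1.46) and from 586 to 2712 FPKM with InP/ZnS (log2 2.21). SHH3, a paralogue of SDH3, was lower with CdSe/ZnS, at -0.82, and SHH4, a paralogue of SDH4, and YJL045W, a paralogue of SDH1, rose with InP/ZnS by 0.88 and 0.59. Over the 6 isoforms and subunits outside the member list, 1 was higher and 3 lower with CdSe/ZnS (50.0% lower, near the share of all genes), and 4 were higher with InP/ZnS (66.7%).

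Of 8 nucleotide and phosphate carriers and regulators of the ATP synthase 5 were lower and 2 higher with CdSe/ZnS, and 5 higher with InP/ZnS. STF1 and STF2, which act with the ATPase inhibitor, were lower with CdSe/ZnS, at -0.96 and -1.35, and higher with InP/ZnS, at 1.02 and 0.92. INH1, the inhibitor itself, was lower with CdSe/ZnS, at -0.83, and higher with InP/ZnS, at 0.38. AAC3, an ADP/ATP carrier of anaerobic growth, was lower with CdSe/ZnS, at -1.51. PIC2, a carrier for phosphate and copper, was higher with both, at 0.37 and 1.48, as was AAC1, an ADP/ATP carrier, at 0.34 and 0.73.

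The list of HAP transcription factors held the 4 subunits of the CCAAT-binding complex and HAP1, a factor that responds to heme. HAP4, the regulated and activating subunit, rose with InP/ZnS (log2 0.50, implied standard error 0.24) and did not pass with CdSe/ZnS (log2 -0.03; the authors' q = 0.884). The other subunits, HAP2, HAP3 and HAP5, were lower with CdSe/ZnS, at -0.78, -0.97 and -1.17, and HAP1 rose with InP/ZnS by 0.71. Coding lengths were 798, 435 and 729 bases for HAP2, HAP3 and HAP5, beside 1665 for HAP4 and 4509 for HAP1, and the trend with length was not removed. In all, 3 of the 5 were lower with CdSe/ZnS and 2 higher with InP/ZnS, beside 43.6% and 23.9% of all genes.

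**Figure D4:**
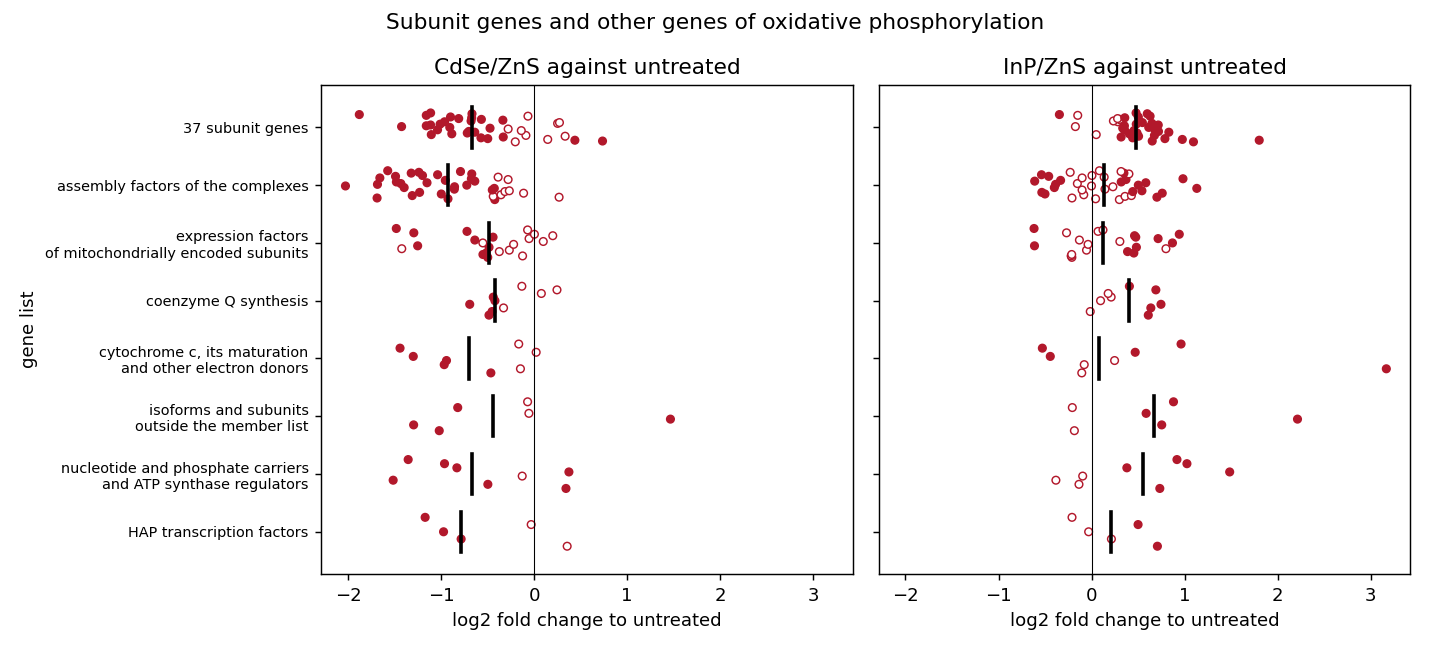
Log2 fold change of the genes in each list of the pathway, for each quantum dot; the 37 members stand in the top row, each point is a tested gene, filled where the authors' q was under 0.05, and the bars mark medians; the mitochondrially encoded genes are not drawn. The median of the assembly factors is -0.93 with CdSe/ZnS and 0.13 with InP/ZnS. CYC7 and COX26 are the highest of the listed genes with InP/ZnS.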

How the data were processed

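Libraries were made from poly(A) RNA with a stranded kit and 15 amplification cycles, per the labels' protocols. The 5′ end was trimmed, and bases under a quality of 20 and reads under 80 bp were dropped, per the deposited text sheets. The submitters' processing notes name TopHat and Cuffdiff. Their versions, the strand setting and the library normalisation: not given in the sources used here.

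Each FPKM was deposited by the authors for 1 gene and 1 condition, over pooled libraries. The log2 fold change was computed from them without a pseudocount and equals the authors' deposited log2 column within 0.001 for every tested gene. The test score and the p-value and q-value are those the authors deposited; the smallest q was 0.000173 in the CdSe/ZnS table and 0.000252 in the other, shared by 20 and 13 members. Which column was treated follows from the deposited higher and lower lists. Because all columns pool libraries, no test over libraries was made.

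The implied standard error is the log2 fold change over the score. The alternatives were 2-sided normal tests with Benjamini-Hochberg adjustment over all genes, as deposited, centred, or freed of a trend (medians of 20 bins, interpolated), and stricter thresholds, a floor of 10 FPKM and a pseudocount of 1. The test of the difference between the dots uses both errors, which is too large where the shared control varies. The normal tests were run on simulated fold changes whose errors were drawn from the same implied standard errors. That simulation cannot show whether those errors suit the real data. From the same scores the normal test called fewer genes than the authors' q, 9.30% higher with InP/ZnS where the authors' q called 23.9%. Coding lengths, loci and sequences are from RefSeq assembly R64; coordinates of 99.6% of 5213 entries in the CdSe/ZnS table equalled it.

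All 37 members are reported. From each pathway list the genes named are up to 4 called per comparison, by smallest q and then largest fold change, and HAP4, CYC1, CYC7, COX5A and COX5B. OLI1, COX1 and ATP6 were named after their values were seen. Members and lists were chosen with earlier results of these data known. Python 3.11.15, numpy 2.4.6, pandas 2.3.3, scipy 1.17.1 and matplotlib 3.10.9 were used.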

Additional observations from a re-analysis of the deposited data

How the results depend on the processing

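The floor of 10 FPKM and the pseudocount of 1 changed no member's call in either comparison with untreated; leaving out entries that share a locus removed ATP1 and ATP14 and changed no call of the other 35. With CdSe/ZnS, the 2 members higher (9.59% of all genes) became 1 at q under 0.01 (6.45%), 1 by the normal test (4.43%) and 0 with a minimum absolute log2 change of 1 (1.52%). The number was 4 after centring (11.9%), 3 without the length trend (10.5%) and 6 without the level trend (11.4%). The 26 lower (43.6% of all genes) became 9 with that minimum change (14.3%), 10 after centring (13.6%), 1 without the length trend (12.1%) and 1 without the level trend (11%). The median of -0.67 became -0.32 after centring, 0.073 without the length trend and 0.027 without the level trend.

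With InP/ZnS, the 29 members higher (23.9% of all genes) became 2 with the minimum change (4.63%), 10 by the normal test (9.30%), 5 after centring (7.87%), 9 without the length trend (8.57%) and 18 without the level trend (8.12%). The 1 lower (17.2% of all genes) became 0 under each of these and at q under 0.01, where 2.18% to 13.2% of all genes were lower. Between the dots, the 24 members higher (12.0% of all genes) became 5 after centring (2.07%) and 1 without the length trend (1.83%), and the median of 1.15 became 0.74 and 0.51.

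With CdSe/ZnS the sign of these log2 values turned positive after centring: NDI1 0.14, SDH4 0.015, QCR2 0.26, CYT1 0.21, COX4 0.068, ATP5 0.011 and ATP17 0.28. Without the length trend it turned for NDI1 0.0057, SDH3 0.073, SDH4 0.35, QCR2 0.31, QCR8 0.058, QCR9 0.17, QCR10 0.11, CYT1 0.30, COX4 0.39, COX6 0.19, ATP5 0.26, ATP7 0.11, ATP15 0.14, ATP17 0.70 and ATP20 0.073. Without the level trend it turned for NDI1 0.18, SDH2 0.041, SDH3 0.027, SDH4 0.30, QCR2 0.54, QCR9 0.078, CYT1 0.40, COX4 0.27, COX6 0.070, ATP5 0.26, ATP7 0.063, ATP15 0.085 and ATP17 0.56. With InP/ZnS it turned for QCR6 -0.018 after centring and for ATP18 0.22 and ATP19 0.023 without the level trend. Between the dots it turned for COR1 -0.24, ATP1 -0.018 and ATP2 -0.14 after centring and for SDH4 -0.013, COR1 -0.23, ATP2 -0.065 and ATP17 -0.028 without the length trend. The cause was not tested.

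No paired analysis was possible because no column holds a single library and, for the same reason, leaving out each replicate was not run. The depth is unknown, and each level is 1 pooled value. Length and level move together over these genes, so their trends cannot be told apart.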

Other observations

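The untreated value of COX19, which encodes a copper-related assembly factor of cytochrome c oxidase, differed between the deposited tables by a factor of 1.90, beyond the 5% to 95% range over all genes of 1.02 to 1.29. The gene was picked after its values were seen. It was listed at 275 FPKM in the CdSe/ZnS table and at 524 in the InP/ZnS table.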
